A study of Mus musculus with 12 samples.

Results

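The non-RGC fraction of the newborn mouse retina, which holds the cells left behind once retinal ganglion cells (RGCs) were pulled out with antibody-coated beads, was compared between mice with a conditional deletion of Ezh2 (mKO) and wild type mice (WT). Every gene with a mean of at least 10 normalised counts in either genotype entered the comparison, which kept 15326 of the 38720 genes listed and of the 25379 with at least 1 read in a non-RGC library. Just inside that limit was Hist1h2an, whose larger mean was 10.022, and just outside it was Clnk at 9.9976. Ezh2 is the enzyme of polycomb repressive complex 2 (PRC2), which methylates histone H3 at lysine 27 and so helps to keep developmental genes silent. The study describes Ezh2 as expressed in the embryonic eye and enriched in RGCs around birth. It has also been studied in retinal progenitor cells. These give rise in a set order to ganglion, amacrine and horizontal cells, photoreceptors, bipolar cells and Müller glia. RGCs are the neurons whose axons form the optic nerve, and the transcription factor Math5 (Atoh7) is required for most of them to form.

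The mKO mice were Math5Cre+ with both copies of Ezh2 floxed, and the labels call the controls wild type (WT), while the study elsewhere speaks of littermate controls and, for other experiments, of floxed littermates, so whether these controls carried floxed alleles is uncertain; mice of both genotypes carried the strain label C57/BL6 and were taken at P0, the day of birth. Retinas were dissociated with papain, cells with the surface protein CD90 (Thy-1) were captured as RGCs, and the cells that were not captured are the non-RGCs analysed here. Cre is expressed from the Math5 locus, so it acts in Math5-expressing progenitors and their progeny. By the study's own account only some RGCs carry it, and most Math5-expressing cells take other fates and make up a minor share of photoreceptors, amacrine cells and other non-RGCs. Each group had 3 libraries, and nothing in the labels says which animals or litters they came from, so the p-values below measure the spread between these libraries, which may be partly technical.

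Depth ranged from 7139633 to 12828281 reads on genes per non-RGC library, and 20072 to 22528 genes had a read. The deposited tables give only the mean of the 3 libraries per group, but the reads of each library were worked back from the digits of those means, and the libraries of a genotype are lettered A to C from the deepest to the shallowest. Correlations of log2 values were 0.966 to 0.989 within a genotype and 0.947 to 0.973 between genotypes, and WT library C stood furthest from its own group, with 0.967 and 0.966. Genotype also went with base composition. Across 12211 genes, the log2 fold change (mKO over WT) fell with the share of G and C in the exons (Spearman's rho = -0.49, taken across genes, which do not count as replicates), from a median of 0.18 in the group of genes with the least GC, of 5 equal groups, to -0.34 in the group with the most. The trend was steepest in mKO library A. The test was therefore repeated after each library was freed of its dependence on GC content and on reads per base, written below as "with the trends removed". Of 70 named genes with an adjusted p under 0.05, 37 lost it.

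**Figure D1:**
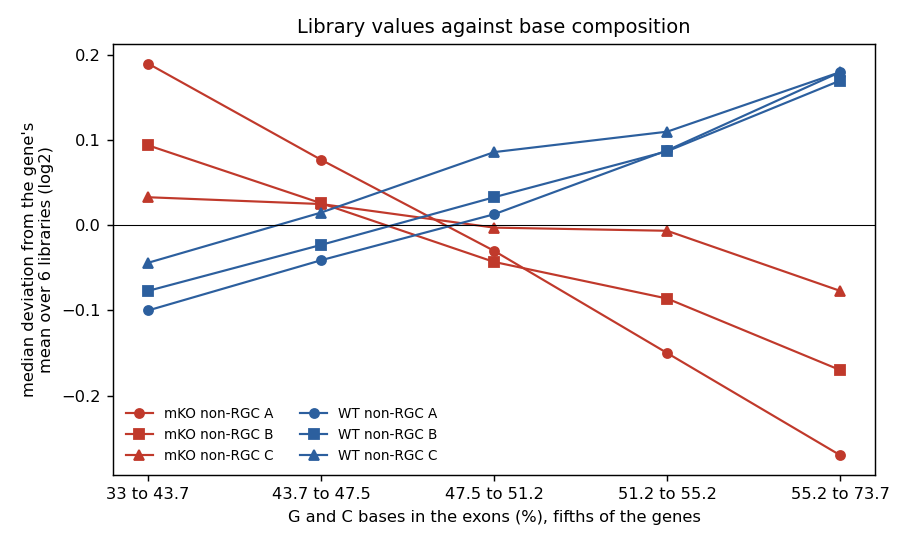
Median deviation of each library from the gene's mean over the 6 non-RGC libraries (log2, vertical axis) in 5 equal groups of genes by the percentage of G and C in their exons (horizontal axis), with mKO libraries in red and WT libraries in blue. The 3 mKO lines fall and the 3 WT lines rise with GC content, and mKO library A runs from 0.19 to -0.27.

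The targeted gene itself did not differ at the level of the whole gene. Ezh2 (ENSMUSG00000029687, chr6:47530139-47595341 on the minus strand of GRCm38) had 1889, 2107 and 2509 normalised counts in mKO libraries A, B and C against 2115, 2149 and 1683 in WT. The genotypes overlapped, and the log2 fold change was 0.13 ± 0.146 (SE, n = 3 against 3, limma adjusted p = 0.584) on the log2(value + 1) scale used throughout. It was 0.087 in the RGC fraction (adjusted p = 0.634), and the difference between the fractions was 0.042 (adjusted p = 0.946). The study reports less Ezh2 in newborn mKO RGCs by qPCR and Western blot, and a change of Ezh2 by RNA-seq. The value over the whole gene in RGCs did not show such a change here. Counts per gene do not separate the deleted exons from the rest of the gene. The loxP sites flank exons 16 to 19, which encode part of the catalytic SET domain, and in the first annotated coding transcript (Ezh2-201, 20 exons) these make up 344 of 2787 bases, or 12.3%. Reads over all other exons enter the same count, and reads over single exons were not examined. By the study's account, only a small share of retinal cells other than RGCs comes from Math5-expressing progenitors. Why the value of the whole gene did not differ was not tested. The 4 exons between the loxP sites read as follows in the GENCODE M21 annotation, 5′ to 3′ on the transcript strand.
Ezh2 exon 16, chr6:47533742-47533837: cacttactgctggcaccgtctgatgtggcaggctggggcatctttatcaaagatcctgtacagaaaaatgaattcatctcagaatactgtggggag
Ezh2 exon 17, chr6:47532902-47532983: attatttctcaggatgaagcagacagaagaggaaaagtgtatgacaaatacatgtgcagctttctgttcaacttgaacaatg
Ezh2 exon 18, chr6:47531985-47532065: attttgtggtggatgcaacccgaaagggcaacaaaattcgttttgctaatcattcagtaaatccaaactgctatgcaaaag
Ezh2 exon 19, chr6:47531741-47531825: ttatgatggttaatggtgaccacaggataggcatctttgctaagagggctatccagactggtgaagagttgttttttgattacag

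Among the 10 other PRC2 genes tested, 1 was called higher and 0 lower, at the thresholds given below. Of all genes, 3.88% were called higher and 4.22% lower. Mtf2, an accessory subunit that helps to bring PRC2 to CpG islands, had 1593, 1492 and 1614 normalised counts in the mKO libraries against 1133, 1066 and 829 in the WT libraries, a log2 fold change of 0.65 ± 0.141 (SE, n = 3 against 3, limma adjusted p = 0.024). All 3 mKO libraries were above all 3 WT libraries. Mtf2 is a gene with little GC (39.5%), and with the trends removed its log2 fold change was 0.49 (adjusted p = 0.0972); without mKO library B its adjusted p was 0.1. The same rise was seen in the RGC fraction, with 0.68 (adjusted p = 0.000918). The core subunits Eed and Suz12 had log2 fold changes of 0.16 and -0.067, and the related enzyme Ezh1 had -0.073, none past the test. The largest negative value belonged to Jarid2, another accessory subunit, at -0.54 ± 0.16 (adjusted p = 0.0589), where all 3 WT libraries lay above the mKO libraries. Values for the remaining subunits were -0.25 for Rbbp4, -0.21 for Rbbp7, -0.025 for Aebp2, -0.44 for Phf1 and -0.34 for Phf19, and the median of the list was -0.073 beside -0.026 for all genes tested.

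Between the genotypes, 595 genes were called higher in mKO non-RGCs, which is 3.88% of those tested, and 647 were called lower, or 4.22%, at a limma adjusted p under 0.05 and a fold of at least 1.5. Without regard to the test, all 3 mKO libraries lay above all 3 WT libraries for 17.5% of the genes and below them for 19.2%. With the trends removed, 128 genes were called higher (0.835%) and 94 lower (0.613%), and 124 and 75 of these were also called without the removal. These counts hang on single libraries. They were 47 higher and 92 lower without mKO library B, 279 and 728 without mKO library A, and 162 and 218 without WT library B. Without WT library A they were 340 and 457, and without mKO library C 411 and 666 and without WT library C 661 and 622. Of 70 named genes with an adjusted p under 0.05, 47 lost it without mKO library B, 32 without WT library B, 24 without WT library A, 19 without mKO library A, 11 without mKO library C and 10 without WT library C. Thy1, Sncg, Ebf1, Adnp, Umod, Alas2, Tyr, Ttr, Chac1, Pax2, Notch1, Prob1 and Glcci1 are among those that kept it in all 6 of these fits. Scaling to total reads in place of the authors' size factors moved the median of all genes from -0.026 to 0.14 and the share of higher calls from 47.9% to 81.1%, so counts of direction are relative to the size factors.

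**Figure D2:**
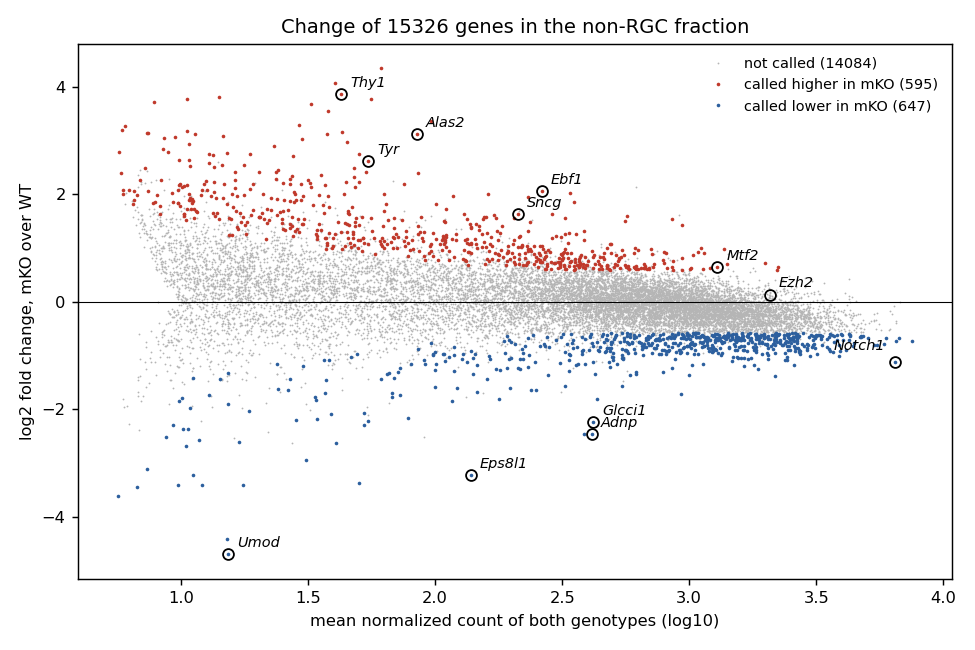
Each dot is 1 of the 15326 genes tested, with the mean normalised count of both genotypes (log10 axis) against the log2 fold change of mKO over WT non-RGCs; red dots were called higher in mKO, blue dots lower, and circled genes are named. Called rises spread over the low and middle counts, while most called falls lie at high counts and small folds.

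Ganglion cell genes were higher in the mKO non-RGCs. Of 12 RGC markers, 8 rose and 0 fell (with 3.88% of all genes called higher). For 10 of them all mKO libraries lay above all WT libraries, as for 17.5% of all genes. The median log2 fold change of the list was 0.99 beside -0.026 for all genes. It was 0.96 with the trends removed, with 5 markers called. Thy1 and Pou4f3 reached the mean of 10 in mKO only, where they were higher, and of the 10 markers that reached it in both genotypes 6 rose, with a median of 0.76. In these bulk samples, more cells of a type cannot be told apart from more RNA per cell, nor fewer cells from less RNA per cell. Thy1, which encodes the antigen used for the capture (chr9:44043384-44048579), had 67, 79.6 and 93.2 normalised counts in mKO against 4.51, 1.94 and 9.38 in WT. These values rest on 66 to 87 reads per mKO library and 2 to 9 per WT library. The lowest mKO library was thus far above the highest WT library, and the log2 fold change was 3.86 ± 0.465 (SE, n = 3 against 3, limma adjusted p = 0.0048). It stayed past the threshold in every alternative run, with a highest adjusted p of 0.0357 without mKO library B.

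The POU-domain factors that drive and maintain the RGC fate moved with it. Pou4f2 (Brn3b) had 177, 199 and 130 normalised counts in mKO against 47.8, 35.8 and 71.9 in WT (log2 fold change 1.72 ± 0.298, SE, limma adjusted p = 0.0116, and 0.0714 without mKO library B). Pou4f1 (Brn3a) had 204, 166 and 206 against 47.8, 42.6 and 136 (1.54 ± 0.393, adjusted p = 0.0376), and Pou4f3 (Brn3c) had 56.3, 51.8 and 45.2 against 5.41, 0.968 and 19.8 (3.02 ± 0.71, adjusted p = 0.0293). No mKO library overlapped a WT library for any of the 3 factors, although WT library C was the highest of the WT libraries each time. Among genes of the axon and cytoplasm, Sncg, which encodes gamma-synuclein, had 247, 316 and 398 against 108, 89.0 and 107 (1.63 ± 0.219, adjusted p = 0.00616). Rbpms, an RNA-binding protein that marks RGCs, had 360, 384 and 309 against 166, 147 and 259 (0.92 ± 0.228, adjusted p = 0.0347). With the trends removed, Pou4f1, Pou4f3 and Rbpms lost the call (adjusted p = 0.0948, 0.0695 and 0.0912), and Pou4f3 passed in 7 of 16 alternatives, with an adjusted p of 0.109 without mKO library B. The neurofilament genes Nefl and Nefm, whose annotated spans overlap on opposite strands of chromosome 14, had log2 fold changes of 1.07 and 0.60 (adjusted p = 0.00922 and 0.0395). Markers shared with other young neurons gave smaller values that did not pass the test: 0.28 for Isl1, 0.35 for Gap43 and 0.13 for Stmn2, and -0.53 for Tubb3, which was the one marker lower in every mKO library. The summed level of the 12 markers, in which the abundant Tubb3, Stmn2 and Nefm weigh most, was 6008 to 8209 in mKO and 5635 to 5968 in WT. Leaving out 1 library at a time gave 2 markers called higher without mKO library B, 4 without WT library A or B, 5 without mKO library A or C, and 7 without WT library C.

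**Figure D3:**
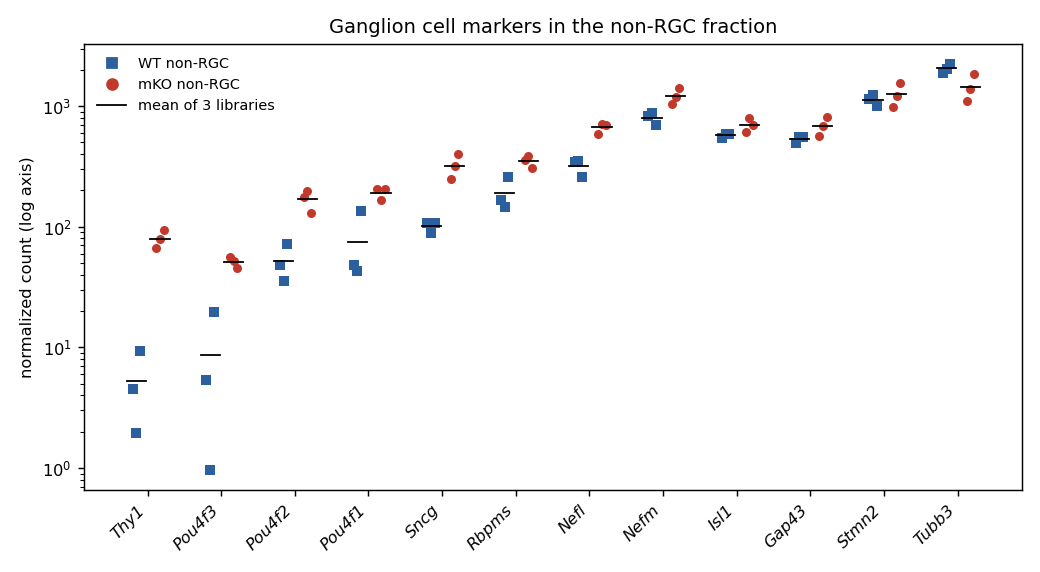
Normalised counts (log axis) of the 12 ganglion cell markers in the 3 WT (blue squares) and 3 mKO (red circles) non-RGC libraries, with the mean of each genotype as a bar. For the markers from Thy1 to Gap43 the 3 mKO libraries sit above the 3 WT libraries; for Stmn2 they overlap, and for Tubb3 they sit below.

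The rise of these genes in the non-RGC fraction was set against the RGC fraction of the same genotypes by testing the difference between both changes across all 12 libraries. The libraries were treated as unpaired, although both fractions may come from the same retinas. Over 15326 genes, 16 changed more in the positive direction in non-RGCs (limma adjusted p under 0.05; 0.104% of the genes) and 0 in the opposite direction (0%). At an unadjusted p under 0.05 the counts were 472 and 1053. Single libraries moved them: without mKO non-RGC library A, 48 changed more in the positive and 198 in the negative direction, and without WT non-RGC library C 30 and 4. The positive count was 10 without WT RGC library A or B, 7 without mKO RGC library A and 10 without mKO RGC library B or C, with 0 negative each time. The 16 included 5 of the 12 RGC markers. For Thy1, the log2 fold change was 3.86 in non-RGCs and -0.73 in RGCs, a difference of 4.60 (adjusted p = 0.00104). Sncg differed by 2.21 (adjusted p = 0.00104) and Pou4f2 by 2.16 (adjusted p = 0.0116), with log2 fold changes of -0.58 and -0.44 in RGCs. In the RGC fraction, Thy1 was at 1425, 1426 and 1422 normalised counts in mKO against 2394, 2519 and 2208 in WT, so the capture antigen was lower where cells were captured and higher where they were not. The median of the 12 RGC markers was -0.47 in the RGC fraction, where 3 were called lower, beside 5.75% of all genes lower and 7.6% higher in that fraction.

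Several genes outside the marker list behaved alike. Ebf1, a helix-loop-helix transcription factor of early neurons, had 381, 469 and 425 normalised counts in mKO non-RGCs against 89.3, 102 and 114 in WT non-RGCs (log2 fold change 2.06 ± 0.183, SE, n = 3 against 3, limma adjusted p = 0.00319). It changed by 0.19 in RGCs, and the difference was 1.86 (adjusted p = 0.000525). Irx4, an Iroquois homeobox factor, had 47.0, 79.6 and 52.2 against 13.5, 5.81 and 14.6 in non-RGCs and a log2 fold change of -0.59 in RGCs, a difference of 2.95 (adjusted p = 0.00865). Without mKO library B, the non-RGC change of Irx4 had an adjusted p of 0.0716, while that of Ebf1 stayed at 0.0235. Rgs4, KCTD12, RP24-312G4.2, Rbpms2, Irx2, Nell2, Adcyap1 and Syt4 also belong to the 16. With both tables normalised separately, the mean WT non-RGC level of the 16 genes was between 0.222% (Thy1) and 17.1% (Nefm) of the mean WT RGC level, and in mKO the same share was between 4.68% (Adcyap1) and 36.1% (Sncg). That the share was higher in mKO for each of them follows from how the 16 were chosen.

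**Figure D4:**
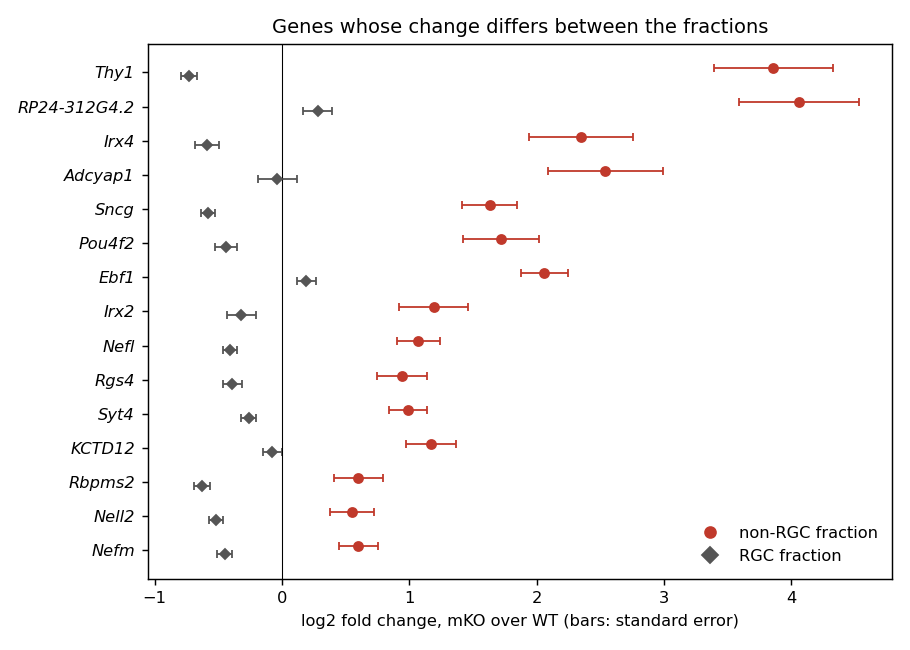
Log2 fold change of mKO over WT, with its standard error, in the non-RGC fraction (red circles) and the RGC fraction (grey diamonds) for genes whose change differed between the fractions. All genes plotted lie to the right of 0 in non-RGCs, up to 4.06 for RP24-312G4.2, and most lie to the left of 0 in RGCs, down to -0.73 for Thy1.

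Promoter sequences were at hand in RefSeq (GRCm38.p6) for 8 of the 16 genes, and the 250 bases before the RefSeq start of each were searched on both strands for letters bound by factors of RGC development. The EBF-type palindrome CCCNNGGG was in 2 of the 8 promoters (25%) and in 11.8% of the 32851 promoters listed, the E-box CANNTG in 4 (50%) and 66.2%, and TAATTA and ATTAAT in 0, beside 4.84% and 4.39%. Matches describe these windows only. The 2 promoters that hold CCCNNGGG are shown because Ebf1 is among the genes that moved, with the match in capitals. The start of the gene in GENCODE M21 lies further upstream, so the last 120 bases of the Sncg window and the last 18 of the Irx4 window are left out.
Sncg, chr14:34374790-34374919, minus strand: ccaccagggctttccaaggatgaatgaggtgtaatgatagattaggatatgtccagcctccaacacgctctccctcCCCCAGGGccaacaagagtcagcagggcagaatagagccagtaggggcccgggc
Irx4, chr13:73260247-73260478, plus strand: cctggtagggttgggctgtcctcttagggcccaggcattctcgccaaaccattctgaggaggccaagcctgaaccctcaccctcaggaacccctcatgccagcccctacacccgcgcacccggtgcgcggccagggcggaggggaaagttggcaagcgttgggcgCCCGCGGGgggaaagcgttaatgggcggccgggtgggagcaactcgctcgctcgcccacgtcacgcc

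Genes of pigment cells and of red blood cells rose too. Of the 9 pigment epithelium markers tested out of 10, 6 were called higher and 0 lower, beside 3.88% and 4.22% of all genes. The median log2 fold change was 1.59 (1.64 with the trends removed, with 4 called). Tyr, the first enzyme of melanin synthesis, had 123, 90.2 and 69.2 normalised counts in mKO against 23.5, 12.6 and 9.38 in WT (2.62 ± 0.383, SE, limma adjusted p = 0.00741). Dct, a later enzyme of that pathway, had 546, 465 and 633 against 184, 202 and 89.7 (1.85 ± 0.291, adjusted p = 0.0086), and Ttr, a thyroid hormone carrier made by the epithelium, had 158, 135 and 177 against 53.2, 41.6 and 36.5 (1.82 ± 0.242, adjusted p = 0.00603). Pmel, Tyrp1 and Mlana were the other 3 calls, at 1.59, 1.44 and 2.00, of which Tyrp1 and Mlana lost the call with the trends removed (adjusted p = 0.0643 and 0.0577). Mlana and Slc45a2 reached the mean of 10 only in mKO, and 5 of the 7 markers that reached it in both genotypes rose. Rpe65, the visual cycle enzyme that defines the mature epithelium, was at or under 3 reads in all 6 libraries. Which pigment cells the other markers came from was not tested. The summed level of the 10 markers was 1821 to 2113 in mKO and 420 to 776 in WT. The list also moved in the RGC fraction, with 4 called higher and a median of 1.01, beside 7.6% of all genes called higher there.

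Red blood cell genes followed the same course, with 5 of the 6 tested (of 9 in the table) called higher, beside 3.88% of all genes. The median was 1.84, and with the trends removed 5 were called. Alas2, which starts heme synthesis in red cell precursors, had 222, 98.8 and 137 normalised counts in mKO against 9.02, 25.2 and 16.7 in WT (3.12 ± 0.414, SE, limma adjusted p = 0.00603). The beta globin gene Hbb-bt had 119, 123 and 191 against 17.1, 36.8 and 27.1 (2.40 ± 0.332, adjusted p = 0.00638), and Hbb-bs, Hba-a1 and Hba-a2 had log2 fold changes of 1.53, 1.55 and 2.13. The globin genes are near-identical pairs, and how reads were split within a pair is uncertain. Slc4a1, the anion exchanger of the red cell membrane, gave -0.37 (adjusted p = 0.626), and the embryonic globins Hbb-bh1 and Hbb-y were at or under 3 reads in all 6 libraries. Summed over the 9 genes, the level was 571 to 873 in mKO and 140 to 223 in WT. In the RGC fraction 5 of these genes were called higher as well, beside 7.6% of all genes there. Without mKO library B, 4 pigment and 2 red cell genes were called, and without any other single library 5 to 7 and 4 or 5. Whether the pigment and red cell genes have a part in the RGC marker result was not tested.

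Several genes typical of the kidney were present at a low level in every WT library and lower, down to 0 reads, in mKO. Of 12 kidney markers, 6 were tested and 4 were called lower. As 5 of the 6 reached the mean of 10 only in WT, where they were higher, their number says nothing beyond the values of the genes themselves. Umod, which encodes the main protein of normal urine, had 1, 0 and 0 reads in mKO against 32, 32 and 30 reads in WT, at least 9.67-fold lower in mKO against a floor of 3 reads over the group (limma adjusted p = 0.00324). Cdh16 and Kap, both genes of the renal tubule, were at least 3.60-fold and 4.16-fold lower, with 0 or 1 reads per mKO library and 10 to 20 per WT library. Napsa and Nphs1, at -0.86 and 0.75, did not pass the test, and Slc22a6 was at or under 3 reads in all 6 libraries. The summed level was 42.4 to 68.1 in mKO and 174 to 250 in WT. All 4 calls were made in each of the alternatives that kept the genes in the fit, the 6 fits without 1 library included; with a mean of at least 50 required, 1 was called and Umod, Cdh16 and Kap were not tested. The same 4 genes were called lower in the RGC fraction, so the WT libraries stood above the mKO libraries in both fractions. Kidney cells are not part of the labelled tissue, whether these transcripts were gained in WT or lost in mKO cannot be told apart here, and a source outside the retina was not tested.

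Of the markers of progenitors, photoreceptors, and amacrine and horizontal cells, 1 or 2 of 12 per list were called lower, beside 4.22% of all genes. All mKO libraries lay below all WT libraries for 4, 6 and 7 of 12 genes in these lists, beside 19.2% of all genes. They lay above for 0, 1 and 1, beside 17.5%. Of 12 progenitor genes, 1 fell, with a median of -0.39 that became -0.048 with the trends removed. The one call was Lhx2, a homeobox gene of eye field and progenitors, at -0.59 ± 0.14 (SE, n = 3 against 3, limma adjusted p = 0.0298); with the trends removed it was at -0.054 (adjusted p = 0.749). Of 12 photoreceptor genes, 2 fell, with a median of -0.38 (-0.24 with the trends removed, with 0 called). Nrl, which sets the rod fate, had 851, 953 and 1220 normalised counts in mKO against 1602, 1882 and 1596 in WT (-0.76 ± 0.154, adjusted p = 0.0197), and its target Nr2e3 gave -0.74 (adjusted p = 0.0234); with the trends removed the adjusted p values were 0.05 and 0.0828, and without mKO library B they were 0.0981 and 0.113. Of 12 amacrine and horizontal cell genes, 2 fell, with a median of -0.38 (-0.25 with the trends removed, with 1 called). Onecut1, a factor of horizontal cells, had 72.4, 63.3 and 41.0 against 140, 144 and 269 (-1.60 ± 0.32, adjusted p = 0.0185, and 0.0428 with the trends removed), and Slc6a9, a glycine transporter of amacrine cells, gave -1.03 (adjusted p = 0.0185, and 0.0656 with the trends removed). Of this list, 10 genes had a negative and 2 a positive log2 fold change. Onecut2 went up, with 1176, 834 and 650 against 519, 526 and 613 (0.64, limma adjusted p = 0.0734). In RGCs Onecut2 was called higher, at 1.49 (limma adjusted p = 0.000997). Summed levels, mKO against WT, were 18717 to 26290 against 26415 to 32687 for progenitor genes, 12819 to 15697 against 17233 to 20050 for photoreceptor genes, and 11975 to 12276 against 14601 to 15736 for amacrine and horizontal genes. Without mKO library B, 0 photoreceptor genes and 0 amacrine and horizontal genes were called lower, and without WT library B 0 and 1, while without WT library C 4 and 3 were called, as without mKO library C. The medians of these lists in the RGC fraction, -0.53, -0.44 and -0.23, had the same sign.

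Among astrocyte and Müller glia genes, 1 of 9 tested rose and 1 fell. Of all genes, 3.88% were called higher and 4.22% lower, and 1 call in a list this small does not describe the list. Pax2, which marks astrocyte precursors of the optic nerve head, had 30.1, 44.1 and 15.5 normalised counts in mKO against 121, 109 and 152 in WT (-2.16 ± 0.366, SE, limma adjusted p = 0.0109). Clu rose by 0.68 (adjusted p = 0.0441, 0.118 without mKO library B and 0.0643 with the trends removed). Gfap, the intermediate filament of astrocytes, was high in 1 library only, with 250 in mKO library A against 20.9 to 47.8 in the other libraries. The endothelial and pericyte list had 1 of 11 called, Tie1 with 3.08, 1.92 and 0 against 22.6, 70.6 and 7.30 (-3.40, adjusted p = 0.0308, 0.0939 without mKO library B and 0.068 with the trends removed), and a median of -0.65; 3 of the 11, Tie1 among them, reached the mean of 10 only in WT. Of 8 microglia genes and 4 lens genes, limma and voom called 0, and 0 had an unadjusted p under 0.05, with medians of 0.48 and 0.34. For the microglia genes Fcrls, C1qb and P2ry12 the sign depends on WT library C, which held 0, 1.04 and 0 normalised counts of them. Mesenchyme genes, with 0 of 9 called by limma (3 at an unadjusted p under 0.05, 1 by voom) and a median of -0.55, marked out WT library B: their summed level was 8960 there, against 2731 and 2829 in WT libraries C and A and 1635 to 2293 in mKO, and Col1a1 alone had 2575 counts in WT library B.

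**Figure D5:**
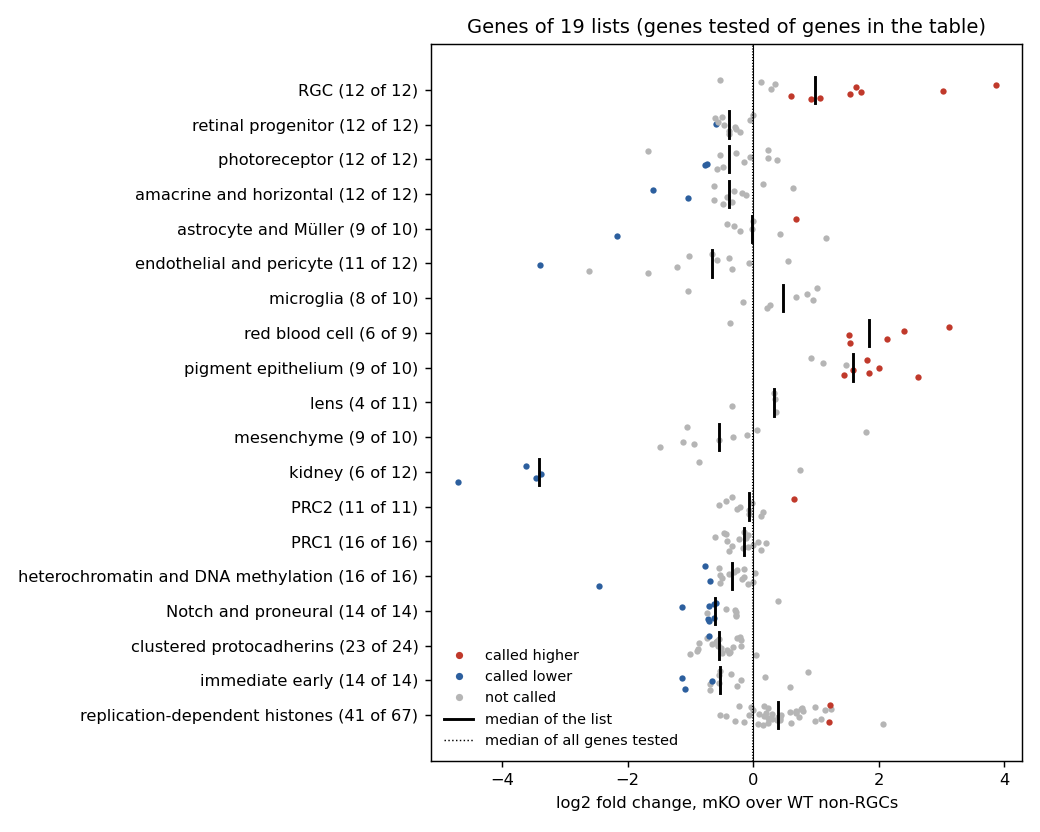
Log2 fold change of mKO over WT non-RGCs for each tested gene of 19 lists, with the number tested of the number in the table after each name; red dots were called higher, blue dots lower, grey dots were not called, black bars are list medians and the dotted line is the median of all genes tested. The RGC, red blood cell and pigment epithelium lists lie to the right, the kidney list to the left, of which 5 of 6 genes reached the mean of 10 only in WT, and most other lists within 1 unit of 0.

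Genes of Notch signalling and of the proneural factors, which balance progenitor upkeep against the start of neuron formation, were lower in mKO. Of 14 genes, 7 fell and 0 rose, beside 4.22% of all genes called lower and 3.88% called higher. The median was -0.61 beside -0.026 for all genes. Notch1, the receptor, had 4727, 3950 and 3467 normalised counts in mKO against 8469, 8376 and 9618 in WT (-1.13 ± 0.128, SE, limma adjusted p = 0.0048). The ligand genes Dll1, Dll3 and Dll4 gave -0.70, -0.63 and -0.59 (adjusted p = 0.0116, 0.0397 and 0.0248), and the proneural gene Neurog2 gave -0.72 (adjusted p = 0.041). Atoh7, whose locus carries Cre in the mKO mice, had 136, 128 and 181 against 239, 224 and 260 (-0.71 ± 0.198, adjusted p = 0.0492). The allele that carries Cre was not measured apart from the normal one. All 7 had every mKO library below every WT library, as did 19.2% of all genes. The effectors Hes1, Hes5 and Hes6 did not pass the test, at -0.28, -0.29 and -0.44. This list has a high median GC content (55.7%), and with the trends removed 0 of the 7 stayed called and the median was -0.28, with Notch1 at -0.79 (adjusted p = 0.0687). Counts were also 1 under scaling to total reads or quantile normalization, and 1, 2, 2 and 2 without mKO library B, mKO library A, WT library B and WT library C.

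In the chromatin lists, 3 of 16 genes of heterochromatin and DNA methylation fell and 0 rose, with a median of -0.34. Over all genes, 4.22% were called lower and 3.88% higher. Adnp, a homeodomain zinc finger protein that recruits silencing and remodelling factors (chr2:168180986-168207112), had 174, 135 and 84.7 normalised counts in mKO against 683, 685 and 724 in WT, on 60 to 226 and 694 to 757 reads. Its log2 fold change was -2.46 ± 0.244 (SE, n = 3 against 3, limma adjusted p = 0.00324), and -2.52 with the trends removed (adjusted p = 0.00464). It was also lower in RGCs, by a log2 fold change of -1.83 (adjusted p = 0.000605), and it passed the test in all 16 alternatives. Cbx3, the gamma form of heterochromatin protein 1, gave -0.69 (adjusted p = 0.0274), and Tet3, which oxidises methylated cytosine, -0.77 (adjusted p = 0.0185); with the trends removed these were -0.93 (adjusted p = 0.0415) and -0.56 (adjusted p = 0.121), and without mKO library B both lost the call, at 0.135 and 0.0838. Of 16 genes of PRC1, the complex that binds the mark PRC2 makes, 0 passed the test (6 were lower at an unadjusted p under 0.05, and voom called 0) and 7 had all mKO libraries below all WT libraries (19.2% of all genes), with Cbx7 at -0.61 (adjusted p = 0.0897) and Phc1 at -0.43 (adjusted p = 0.0392, under the fold required, and 0.235 with the trends removed).

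Hox genes, classical targets of PRC2, were near 0 in both genotypes. None of the 38 Hox genes reached a mean of 10, 36 of them were at or under 3 reads in all 6 libraries, and their summed level was 4.62 to 15.5 in mKO and 4.17 to 9.68 in WT, so a change of these genes was not detectable at this depth. Of 20 regulators of non-retinal tissues, 15 were tested, 1 rose and 1 fell, beside 3.88% and 4.22% of all genes. With the trends removed 0 stayed called. Foxf1, a factor of visceral mesoderm, had 13.9, 20.1 and 11.3 normalised counts in mKO against 3.61, 4.84 and 2.09 in WT (1.85 ± 0.461, SE, limma adjusted p = 0.0347, 0.174 without mKO library B and 0.0544 with the trends removed); it reached the mean of 10 only in mKO. Pax7, a factor of muscle and neural crest precursors, had 13.1, 18.2 and 11.3 against 97.4, 148 and 26.1 (-2.30 ± 0.561, adjusted p = 0.0327, 0.1 without WT library B and 0.075 with the trends removed). Msx2, with 6.94, 12.5 and 14.1 against 2.71, 0 and 4.17, gave 2.13 (adjusted p = 0.0702). Gata4, Hand2, Nkx2-5, Pax3 and Wt1 were at or under 3 reads in all 6 libraries.

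Zinc finger genes named Zfp, many of which encode KRAB repressors, moved both ways: 31 of 328 tested rose and 10 fell, beside 3.88% and 4.22% of all genes, and the median was 0.11. Zfp459 had 69.4, 50.8 and 41.0 normalised counts in mKO against 14.4, 9.68 and 8.34 in WT (2.21 ± 0.353, SE, limma adjusted p = 0.00922), and Zfp239 gave 1.28 (adjusted p = 0.00815). The list is poor in GC (median 45%), and with the trends removed 6 were called higher and 4 lower. Without mKO library B, 0 were called higher and 1 lower, and without WT library B 8 and 2. In the RGC fraction 92 were called higher and 12 lower, beside 7.6% and 5.75% of all genes there. Near the Ezh2 locus, within 5 Mb, 1 of 47 tested genes rose and 2 fell; Gpnmb, a melanosome glycoprotein gene, had 130, 95.9 and 77.7 against 30.7, 29.0 and 22.9 (1.82 ± 0.285, adjusted p = 0.0086), and the falls were Cbx3 and Zfp398. Near Atoh7, 1 of 67 rose and 3 fell, namely Ccdc138 (0.73) against Atoh7, Eif4ebp2 (-0.86) and the pseudogene Gm9987 (-1.69); with the trends removed Ccdc138, Atoh7, Eif4ebp2 and Gm9987 had adjusted p values of 0.17, 0.15, 0.0513 and 0.133. Both windows were thus near the background of 3.88% higher and 4.22% lower.

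The largest falls, among genes whose mean reached 10 in mKO and in WT, were led by Eps8l1, an actin regulator of epithelia, with 23.9, 24.9 and 19.8 normalised counts in mKO against 358, 302 and 98.0 in WT (-3.22 ± 0.437, SE, limma adjusted p = 0.0063). Hs6st3, a heparan sulfate sulfotransferase, had 21.6, 8.63 and 5.65 against 57.7, 71.6 and 79.2 (-2.63, adjusted p = 0.011). Prob1 had 139, 131 and 79.1 against 483, 550 and 924 (-2.46, adjusted p = 0.0048), and Glcci1, a glucocorticoid-induced gene, had 234, 136 and 91.8 against 623, 644 and 786 (-2.24, adjusted p = 0.00603). In RGCs Prob1 and Glcci1 were lower as well, at -1.09 and -1.47 (adjusted p = 0.00106 and 0.000929), while Eps8l1 and Hs6st3 gave -0.50 and -0.76 there and did not pass the test. Adnp, Pax7, the antisense transcript Gm12473 (-2.21) and Galnt2, which starts mucin-type O-glycosylation (-2.19), complete the 8. Hs6st3 had an adjusted p of 0.0595 without mKO library B and Galnt2 of 0.0709 without WT library B. With the trends removed, Pax7 and Galnt2 lost the call (adjusted p = 0.075 and 0.057).

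Under the same limit on the means, the largest rises besides Alas2, Tyr and Hbb-bt were Gm9825, a processed pseudogene with 135, 165 and 209 normalised counts in mKO against 3.61, 44.5 and 19.8 in WT (3.36 ± 0.676, SE, limma adjusted p = 0.019), Tmprss7, Hpgd, Gm26656 and Gm26981. Hpgd, which breaks down prostaglandins, had 92.5, 81.5 and 86.1 against 11.7, 6.77 and 21.9 (2.74 ± 0.396, adjusted p = 0.00715), with little spread between the mKO libraries. Tmprss7, a membrane serine protease, had 74.7, 91.1 and 65.0 against 28, 9.68 and 2.09 (2.97, adjusted p = 0.0261, and 0.105 without mKO library B). The lincRNAs Gm26656 and Gm26981 gave 2.49 and 2.42 (adjusted p = 0.0135 and 0.00794, and 0.0727 and 0.0483 without mKO library B). With the trends removed, Tmprss7 and Gm26656 lost the call (adjusted p = 0.0632 and 0.0592). Pseudogenes as a class were called higher in 67 of 390 (17.2%) and lower in 4, with a median of 0.69, beside 441 higher and 615 lower of 13756 protein-coding genes, with a median of -0.05. The median normalised count of the tested pseudogenes was 15.5, near the entry limit of 10, against 519 for protein-coding genes. Some may have entered only through the genotype where they were higher, so these numbers do not describe the class. With the trends removed, 16 pseudogenes were called higher and 0 lower. Their reads can come from near-identical genes elsewhere, so the source of these counts is uncertain.

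Lists of growth and metabolism hardly moved past the test. Of 41 replication-dependent histone genes tested, 2 rose and 0 fell, near the 3.88% of all genes that rose, with a median of 0.40: Hist3h2a had 260, 284 and 347 normalised counts in mKO against 141, 144 and 103 in WT (1.2 ± 0.208, SE, limma adjusted p = 0.0116, and 0.0662 without mKO library B) and Hist1h1a gave 1.23 (adjusted p = 0.0412, and 0.0772 with the trends removed). Most of these histone transcripts lack a poly(A) tail and are captured poorly by poly(A) selection. For DNA replication and mitosis (27 genes), cytosolic ribosomal proteins (76), mitochondrial ribosomal proteins (72), nuclear genes of the respiratory chain (76), mitochondrial genes of the chain (7 of 13) and glycolysis (17), limma called 0 in either direction, with medians of -0.16, -0.17, 0.13, -0.10, -0.25 and -0.32. At an unadjusted p under 0.05 these lists held 2, 0, 10, 2, 0 and 0 genes above 0 and 4, 2, 2, 2, 0 and 3 below, and voom called 1, among the mitochondrial ribosomal genes. All 17 glycolysis genes had a negative log2 fold change, as in Hk1 (-0.46, adjusted p = 0.0328, under the fold required, and 0.185 with the trends removed) and Gapdh (-0.41, adjusted p = 0.187), and with the trends removed the median was -0.18. The cytosolic ribosomal list was at -0.55 in the RGC fraction, with 31 of 76 called lower there, beside 5.75% of all genes. Of 31 splicing factors 1 fell, beside 4.22% of all genes, with a median of -0.14. It was Hnrnpf at -0.59 (limma adjusted p = 0.0319, and 0.0702 with the trends removed).

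Neuronal and response lists gave 0 to 3 calls each, beside 3.88% of all genes called higher and 4.22% called lower. Of 14 genes of synaptic release 1 rose, Slc17a6, the vesicular glutamate transporter of RGCs, with 137, 129 and 96.0 normalised counts in mKO against 50.5, 41.6 and 57.3 in WT (1.25 ± 0.25, SE, limma adjusted p = 0.0185, 0.101 without mKO library B and 0.0581 with the trends removed), against a list median of -0.36. Of 23 clustered protocadherins 22 had negative values, with a median of -0.55 beside 0.21 in the RGC fraction; 1 fell, Pcdhga9 at -0.71 (adjusted p = 0.0147, and 0.152 with the trends removed), and exons shared within these clusters make the counts of single genes uncertain. Immediate early genes, which neurons switch on with activity or handling, fell in 3 of 14, with a median of -0.53: Fosb had 1184, 1970 and 1462 against 2866, 3500 and 3295 (-1.09 ± 0.177, adjusted p = 0.00963), Egr3 gave -1.14 (adjusted p = 0.0331) and Egr1 -0.66 (adjusted p = 0.0315). With the trends removed 0 of these stayed called and the median was -0.0046; 1 was called without mKO library B or WT library B and 6 without mKO library C. Of 10 ER stress genes 1 rose: Chac1, which degrades glutathione, had 200, 118 and 169 against 50.5, 62.9 and 53.2 (1.5 ± 0.254, adjusted p = 0.0109) and passed the test in all 16 alternatives, beside -0.12 in RGCs. Of 10 p53 targets 1 fell, Bbc3 (Puma) at -0.91 (adjusted p = 0.0236, and 0.242 with the trends removed), and of 10 hypoxia genes 0 passed (2 lower at an unadjusted p under 0.05, 0 by voom). Among 13 imprinted genes 1 fell, Igf2 at -0.88 (adjusted p = 0.0347, 0.112 without WT library B and 0.173 with the trends removed), and of 5 tested genes of X inactivation and the Y chromosome 0 passed at an adjusted or unadjusted p, or by voom, with Xist at 2559 to 5683 and Ddx3y at 211 to 638 in the 6 libraries.

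The calls of both fractions were laid side by side, and over the same 15326 genes, 7.6% were called higher and 5.75% lower in RGCs. The fractions share no library, but non-RGCs are the cells left after the RGCs were captured. Both may thus come from the same retinas, so the overlap of their calls is not independent agreement. Of the 595 genes called higher in non-RGCs, 320 were called higher in RGCs too, which is 53.8% of the first list and 27.5% of the second, and 3 were called lower there. Of the 647 called lower, 269 were called lower in RGCs, or 41.6% and 30.5%, and 0 were called higher. Kidney, red blood cell and pigment genes and Adnp are among those that moved the same way in both fractions, and the RGC markers are among those that did not.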

How the data were processed

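RNA-seq was measured in 12 libraries of P0 retina, of which the 6 non-RGC libraries (3 mKO, 3 WT) were compared here; the 6 RGC libraries gave the RGC values set beside them and entered the test of the difference between fractions. Per the study's methods, the labels and the file names, libraries were made with poly(A) selection and sequenced single-end in 1 lane, and the authors aligned reads with STAR (2.3.1z4 in the submitters' processing notes) to mm10, kept primary alignments, removed duplicates, counted per gene with featureCounts, and normalised and tested with DESeq. Removing duplicates of single-end reads caps the count per base and can so understate differences of abundant genes. The deposited signal columns used are the authors' means of 3 size-factor normalised values per group. The deposited fold changes and p-values are the authors' comparisons and were not used. The columns of per-sample values left unused numbered 0.

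Whole reads of each library were recovered from the 15 digits of the means, as the 1 combination of 3 whole numbers that gives the mean, in 100% of genes with a read; none of 226 and 220 genes matched when the steps were shifted. The recovered libraries carry no replicate number. Values were tested with limma 3.58.1 (R 4.3.3) on log2(value + 1), allowing the variance to follow the mean, Benjamini-Hochberg over 15326 genes, two-sided, called at an adjusted p under 0.05 and a fold of at least 1.5. The pseudocount makes folds of low genes too small. With 3 against 3, an exact permutation test cannot go below 0.1, so none was run. Samples were grouped by their labels. The fit was tested on simulated data.

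Gene types, positions, exon lengths and GC came from GENCODE M21 (GRCm38, the build mm10 names), where 35580 symbols matched and 1747 older symbols did; 1393 did not. Trends were lowess fits over genes whose mean reached 50. Members, gene lists and tests were chosen with earlier results of these data known. Named genes are PRC2 members, Atoh7 and Thy1; the 8 largest called rises and falls whose means reach 10 for both genotypes, without overlap; 5 of each also called with trends removed; up to 4 of each list by absolute log2 fold change; and the 5 largest differences between fractions. Other list members are named to complete a list, and some genes that the rule or a list holds are counted but not reported here by name. Alternatives were other pseudocounts, filters, scalings, voom, trend removals and leaving out each library.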

Additional observations from a re-analysis of the deposited data

Results flagged for a closer look

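The genes below were singled out because their change differed between the non-RGC and the RGC fraction by a test of the difference itself (limma over 12 libraries, adjusted p under 0.05, all in the same direction). The differences in log2 fold change, non-RGC minus RGC, were 4.60 for Thy1, 3.78 for RP24-312G4.2, 2.95 for Irx4, 2.58 for Adcyap1, 2.21 for Sncg and 2.16 for Pou4f2. They were 1.86 for Ebf1, 1.51 for Irx2, 1.48 for Nefl, 1.33 for Rgs4, 1.24 for Syt4, 1.24 for KCTD12, 1.23 for Rbpms2, 1.07 for Nell2 and 1.05 for Nefm. RP24-312G4.2 and KCTD12 matched no gene of the annotation used. Rbpms2 and Nell2 differed between the fractions although neither was called in non-RGCs alone, at 0.60 and 0.55 (limma adjusted p = 0.0735 and 0.0713). Once trends were removed in both fractions, 9 genes differed.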

How the results depend on the processing

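No paired analysis was possible because the recovered libraries carry no replicate numbers. Ezh2 stayed short of the threshold in all 16 alternatives, with log2 fold changes of 0.015 to 0.40. The called genes, higher and lower, were 1121 and 262 with scaling to total reads, 345 and 354 with quantile normalization, 156 and 78 with the GC trend removed, 128 and 94 with the GC and reads per base trends removed, and 71 and 81 with the GC, exon length and level trends removed; with a fold of at least 2 they were 372 and 146, and with no fold threshold 985 were lower. The last removal was added after seeing the data, because taking out GC and reads per base left a trend with exon length (Spearman's rho = -0.46 across genes, against -0.15 with nothing removed). Leaving out 1 library gave 47 to 661 higher, 92 to 728 lower and 7 to 246 genes that differ between fractions, and 9 differed with the GC and reads per base trends removed. Of 70 named genes with an adjusted p under 0.05, 47 lost it without mKO library B, 40 with GC, exon length and level trends removed and 37 with GC and reads per base trends removed; the cause was not tested.

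Signs turned for 19 of the named genes, and none of the turned values had an adjusted p under 0.05. Under scaling to total reads, Ezh1 was 0.10, Suz12 0.10 and Aebp2 0.15. Under quantile normalization, Suz12 was 0.20, Rbbp4 0.035, Aebp2 0.21 and Mki67 0.0062. With the GC trend removed, Ddx3y was -0.085, Uty -0.22 and Eif2s3y -0.26. With GC and reads per base trends removed, Phc2 was 0.023, Cbx2 0.01, Rplp1 0.085, Bax 0.061, Ddx3y -0.12, Uty -0.29 and Eif2s3y -0.29. With GC, exon length and level trends removed, Ezh1 was 0.042, Aebp2 0.15, Lhx2 0.071, Phc2 0.29, Cbx2 0.10, Hk1 0.056, Ddx3y -0.23, Uty -0.33 and Eif2s3y -0.49. Leaving out 1 library gave ranges of -0.15 to 0.023 for Ezh1, -0.16 to 0.075 for Suz12, -0.089 to 0.059 for Aebp2, -0.62 to 1.86 for Fcrls, -0.44 to 1.79 for C1qb, -0.43 to 1.66 for P2ry12, -0.0076 to 1.06 for Cryab, -3.14 to 0.70 for Col3a1, -0.14 to 0.62 for Ddx3y, -0.24 to 0.67 for Uty and -0.25 to 0.69 for Eif2s3y. Genes with a mean under 10 normalised counts were left out for lack of depth, which includes every Hox gene.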
